A study of Mus musculus with 6 samples.

Results

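The genes described here are 10 receptors of the tumour necrosis factor (TNF) receptor superfamily, Tnfrsf4, Tnfrsf8, Tnfrsf9, Tnfrsf18, Tnfrsf1a, Tnfrsf1b, Tnfrsf11b, Tnfrsf26, Cd27 and Fas, among 55401 genes in the count table. They were picked by symbol and chosen by measured values, since their read counts and their differences between the groups were already known when the set was drawn up. Those differences are therefore given as a description. No p-value is given for them, the threshold of the test across all genes serves only to sort them, and their intervals show precision. A further 18 mouse genes carry the name of the superfamily or belong to it, and these were set beside the 10. Mouse T cells had been cultured with the supernatant of macrophages, either untreated (control) or exposed to neurofilament light chain (NFL), a protein of the axonal skeleton, and each group had 3 libraries.

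The design text states that T cells were isolated out of spleen using beads against CD8a, and that the macrophages of both groups came from CD11b-positive spleen cells kept for 7 days with M-CSF at 50 ng/mL, while the sample labels say only T cell. For these samples NFL is described as prepared from freeze-thawed sciatic nerve lysate and given at 5 µg/mL for 24 h. T-cell medium of both groups held 50% supernatant and 2% serum. In the study's methods, a commercial NFL was given to mice, NFL doses in culture were lower, and nerve lysate was a separate treatment. Whether the macrophages here received purified NFL or lysate is not settled by these sources. The study's methods name female C57BL/6 mice among its animals, but which mice gave these cells, and whether each library came from a separate animal or culture, are not given in the sources used here, so the p-values below measure only the spread between these libraries, which may be technical. Library totals were 15843045 to 24639756 counts with control supernatant and 16190568 to 17796228 with NFL supernatant, and 3 counts, the floor used here, correspond to 0.122 to 0.189 CPM, the count relative to the TMM-scaled library total. Of 12 T-cell markers, Cd2 and Cd5 had 0 counts in all 6 libraries, Thy1 had 1575 to 1709 CPM, Cd3e 49.1 to 64.6 CPM, Cd4 23.3 to 27.6 CPM and Cd8a 3.20 to 4.46 CPM. Cd247 had 37.78 to 47.1 CPM, Cd3g 6.046 to 8.859 CPM and Lck 3.665 to 5.899 CPM. Lower still were Cd3d at 2.322 to 4.825 CPM, Trac at 0.9939 to 2.5 CPM and Cd8b1 at 0.8697 to 1.569 CPM. These are levels per library and were not set against each other per length. With 0 counts of Cd2 and Cd5 and low Cd8a, Cd8b1 and Trac, these markers do not by themselves bear out CD8 T cells of the spleen. The cell source was not tested, so the receptor levels below are those of these libraries as labelled. Cd3e was the 1 marker of this list past the threshold, with a log2 fold change of -0.28 (SE 0.056, edgeR adjusted p = 0.00057). Of the 10 that could be tested, 8 had a log2 fold change under 0, and the median was -0.19. Over all 14082 genes tested, 7097 were under 0, and 3.53% were lower past the threshold. Some of the 8 rest on few counts, such as 16 to 61 for Trac and 14 to 37 for Cd8b1. The summed level of the list, nearly all Thy1, was 1769 to 1868 CPM with control and 1718 to 1808 CPM under NFL supernatant, and its part in the differences given here was not tested.

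TNF receptor superfamily proteins bind trimeric ligands of the TNF superfamily through cysteine-rich repeats. One group recruits TRAF adaptor proteins to short motifs in the cytoplasmic tail and feeds NF-κB and MAP kinase signalling. A second group carries a death domain and can start caspase activation, and a few members are decoys that bind ligand without signalling. On T cells the TRAF-binding receptors Tnfrsf9 (4-1BB), Tnfrsf4 (OX40), Tnfrsf18 (GITR), Tnfrsf8 (CD30) and Cd27 are known as co-stimulatory receptors, most of them raised after activation.

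Of the 10 receptors, 9 passed the filter on low counts and Fas did not. Tnfrsf11b, Tnfrsf9 and Tnfrsf8 were higher and Tnfrsf26 was lower with NFL supernatant, and 5 receptors, Tnfrsf18, Tnfrsf1a, Tnfrsf1b, Tnfrsf4 and Cd27, were not past the threshold. These 4 of 9 stand beside 7.00% of all 14082 genes tested, 3.47% higher and 3.53% lower, at an edgeR adjusted p under 0.05. That share rests on 986 genes, which became 508 without NFL replicate 3, 616 without NFL replicate 2 and 651 with DESeq2, and the split of 489 higher and 497 lower became 372 and 600 with library size alone. Because the receptors were chosen with this contrast known, nothing is read from that count. The median log2 fold change of the 9 was 0.08, against 0.00 over all genes tested. The levels of the 2 groups did not overlap for 5 of the 9, the 4 above and Tnfrsf1a, where this held for 22.7% of all genes. In bulk RNA, fewer cells with a transcript and less transcript per cell cannot be told apart.

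**Figure D1:**
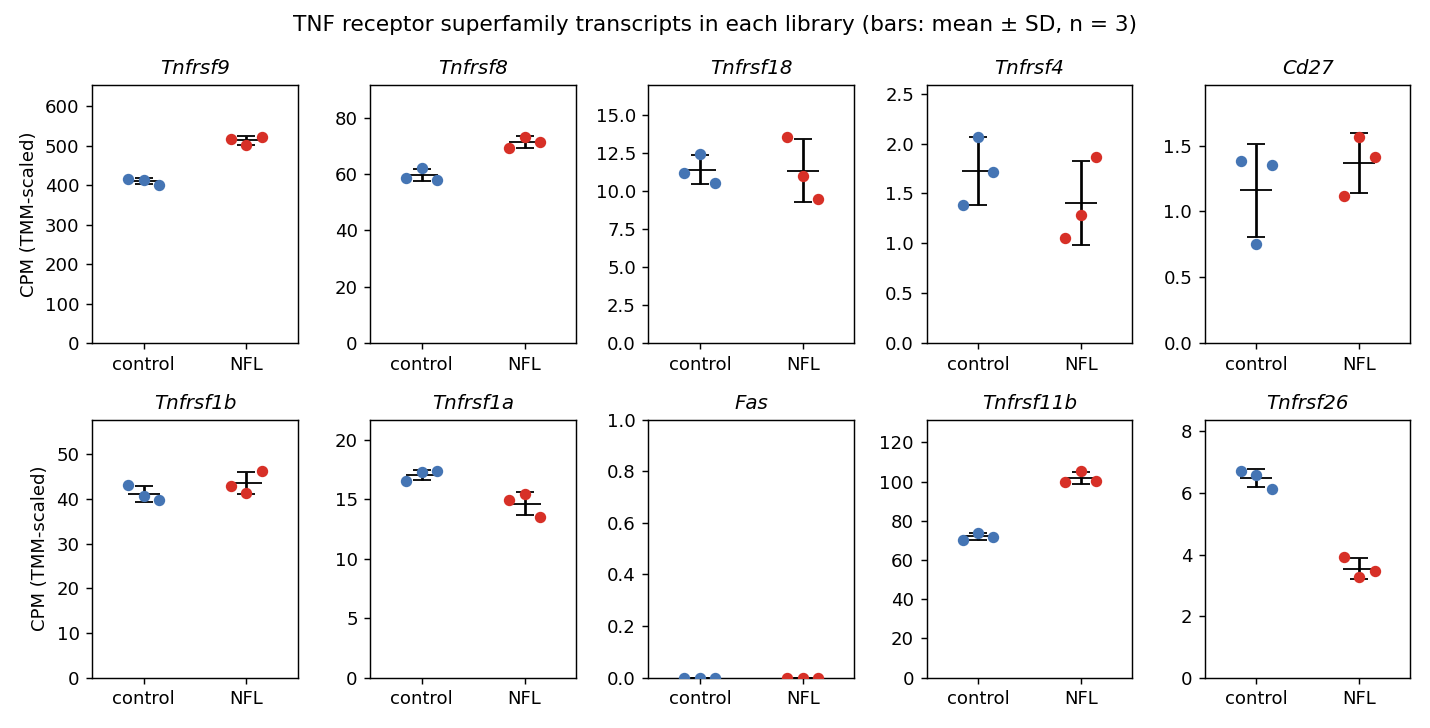
Level of each of the 10 receptors in every library, in CPM scaled by TMM, with control supernatant in blue and NFL supernatant in red. Each point is 1 library, bars give the mean ± SD (n = 3), and each panel has its own axis from 0. Tnfrsf9, Tnfrsf8 and Tnfrsf11b lie higher and Tnfrsf26 and Tnfrsf1a lower in all 3 NFL libraries, the groups overlap for Tnfrsf18, Tnfrsf4, Cd27 and Tnfrsf1b, and Fas is at 0.

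Tnfrsf9 (ENSMUSG00000028965.13), the co-stimulatory receptor 4-1BB, was the most abundant receptor of the family. It had 416.5, 413.6 and 401.6 CPM in control replicates 1 to 3 and 518.2, 502.0 and 523.7 CPM in NFL replicates 1 to 3. All 3 NFL libraries were above all 3 control libraries, by more than the range within either group. The mean went from 411 ± 7.93 CPM to 515 ± 11.2 CPM (SD, n = 3 each), which is 25.4% more and a log2 fold change of 0.33 (SE 0.029). Among the 6 libraries its counts were 6591 to 10250, for which counting error alone is 1.07%, and the SD between libraries was 1.93% and 2.18% of the mean. Tnfrsf9 overlaps Camta1 on the other strand, which had 863 to 1520 counts, and whether strand was used in counting is not given in the sources used here. Its ligand Tnfsf9 (4-1BBL) was detected at 8.84 to 10.9 CPM in the same cells, with overlapping groups and a log2 fold change of 0.03 (SE 0.12, edgeR adjusted p = 0.94).

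The region just upstream of Tnfrsf9 is shown because the gene has 2 annotated start sites, of which gene-level counts cannot say which was used. Both windows run from 250 bases before to 50 bases after a RefSeq start on the plus strand of chromosome 4 (GRCm38.p6), at chr4:150919905-150920204 and chr4:150927749-150928048. They are printed 5′ to 3′, with capitals for matches to the κB consensus, the site bound by NF-κB, and to the AP-1 motif TGANTCA, searched on both strands.
Tnfrsf9 start 1: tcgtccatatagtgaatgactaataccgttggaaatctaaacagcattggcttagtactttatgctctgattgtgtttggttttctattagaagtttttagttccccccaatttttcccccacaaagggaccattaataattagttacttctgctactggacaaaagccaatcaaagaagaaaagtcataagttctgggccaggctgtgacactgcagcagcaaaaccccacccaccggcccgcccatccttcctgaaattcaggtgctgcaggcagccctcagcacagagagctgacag
Tnfrsf9 start 2: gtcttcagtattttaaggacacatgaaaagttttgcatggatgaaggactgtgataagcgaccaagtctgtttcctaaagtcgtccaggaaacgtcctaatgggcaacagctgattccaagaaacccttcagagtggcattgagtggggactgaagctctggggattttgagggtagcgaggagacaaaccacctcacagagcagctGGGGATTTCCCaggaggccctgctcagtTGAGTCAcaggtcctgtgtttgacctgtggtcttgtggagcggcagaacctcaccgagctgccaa
The window of the first start held neither motif. In that of the second start, overlapping κB matches began 43 and 42 bases before the start and an AP-1 match 15 bases before it. Of 32851 RefSeq promoter windows of this length, 4.51% held a κB match, 7.81% an AP-1 match and 13.6% the letters TATAAA, which were also searched and found in 0 of the receptor windows. A match is a run of letters and was not tested as a binding site.

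Tnfrsf8 (ENSMUSG00000028602.12), the receptor CD30, had 58.80, 62.26 and 58.05 CPM in the control libraries and 69.45, 73.42 and 71.60 CPM in the NFL libraries. The lowest NFL library was above the highest control library. The means were 59.7 ± 2.24 CPM and 71.5 ± 1.99 CPM (SD, n = 3 each), and the log2 fold change was 0.26 (SE 0.051), or 20.1% more. Its ligand gene Tnfsf8 had 0 counts in all 6 libraries. On chromosome 4, Tnfrsf8 lies next to Tnfrsf1b, with 0 protein-coding genes between them in GENCODE M21. The window upstream of Tnfrsf8, at chr4:145315115-145315414 on the minus strand of GRCm38.p6, is shown as the other receptor promoter with a κB match.
Tnfrsf8: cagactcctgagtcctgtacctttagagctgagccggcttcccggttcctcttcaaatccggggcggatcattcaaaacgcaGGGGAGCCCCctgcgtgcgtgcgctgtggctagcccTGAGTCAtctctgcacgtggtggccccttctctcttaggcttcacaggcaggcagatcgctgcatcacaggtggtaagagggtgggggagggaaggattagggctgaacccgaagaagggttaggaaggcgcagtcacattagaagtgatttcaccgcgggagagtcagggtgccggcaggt
In this window the κB match began 168 bases and the AP-1 match 132 bases before the start. Promoter windows were found for 8 of the 10 receptors, all but Tnfrsf11b and Tnfrsf26. Of the 8 genes, Tnfrsf8 and Tnfrsf9 held a κB match, and Tnfrsf8, Tnfrsf9 and Fas an AP-1 match. That of Fas began 211 bases before its start. By window, 2 of 9 held a κB match, beside 4.51% of all RefSeq promoter windows. An AP-1 match was in 3 of 9, beside 7.81%. Whether these matches bear on the differences was not tested, and nothing is read from the counts.

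The other co-stimulatory receptors did not separate the groups, and Tnfrsf4 and Cd27 were low. Tnfrsf18 (GITR) had 11.2, 12.4 and 10.6 CPM with control supernatant and 13.6, 10.99 and 9.46 CPM with NFL supernatant, and its log2 fold change of 0.00 (SE 0.12) had a 95% interval of -0.24 to 0.24. The NFL libraries spanned the whole range of the control libraries. Tnfrsf18 overlaps the antisense gene Gm16008 (40 to 77 counts).
Tnfrsf4 (OX40), the gene next to Tnfrsf18 on chromosome 4, had 1.38, 2.07 and 1.72 CPM with control supernatant and 1.06, 1.28 and 1.87 CPM with NFL supernatant. These rest on 17 to 42 counts, so that counting error alone is 18.2%, and the log2 fold change of -0.27 (SE 0.32) had an interval of -0.92 to 0.38.
Cd27, the receptor of Cd70, had 1.38, 0.753 and 1.35 CPM with control supernatant and 1.12, 1.57 and 1.42 CPM with NFL supernatant, on 12 to 34 counts. Its log2 fold change was 0.20 (SE 0.35), with an interval of -0.50 to 0.90. Cd27 overlaps Vamp1 on the other strand, which had 303 to 532 counts, more than Cd27 itself, and 3.31% of the stretches of 50 bases in its transcripts are shared with the miRNA gene Mir8113, which had 0 counts. At these counts the values of Tnfrsf4 and Cd27 do not fix the direction of a difference. The ligand genes of these receptors were at or under the floor, with 0 counts for Tnfsf18 and at most 2 counts in a library for Tnfsf4 and for Cd70.

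The pair of TNF receptors differed in level. Tnfrsf1b (TNFR2), which binds TRAF proteins and is known from activated and regulatory T cells, had 43.1, 40.6 and 39.8 CPM with control supernatant and 42.9, 41.4 and 46.2 CPM with NFL supernatant. The groups overlapped, and the log2 fold change was 0.08 (SE 0.062, 95% interval -0.05 to 0.21).
Tnfrsf1a (TNFR1), the death domain receptor that most cell types express, had 16.5, 17.3 and 17.4 CPM with control supernatant and 14.9, 15.5 and 13.5 CPM with NFL supernatant. All 3 NFL libraries were below the control libraries, and the log2 fold change was -0.22 (SE 0.096), but with adjustment over all genes it did not pass the threshold. The interval of its log2 fold change, -0.41 to -0.03, is for this gene alone.
Per length, the level of Tnfrsf1b was 1.77, 1.60 and 1.56 times that of Tnfrsf1a in the control libraries and 1.95, 1.82 and 2.32 times in the NFL libraries. This ratio, which does not depend on the scaling between libraries, was higher in each NFL library than in each control library. Its means were 1.64 ± 0.11 with control and 2.03 ± 0.26 with NFL supernatant (SD, n = 3 each). The groups were close, with 1.77 in a control and 1.82 in an NFL library. The ratio was formed with the values of both genes known. How often other gene pairs separate the groups was not computed, so nothing is read from it. The ligands of both receptors, Lta and Tnf, were detected in the same cells. The level of Tnf was 77.3 to 91.2 CPM in control and 93.5 to 101.6 CPM in NFL libraries (log2 fold change 0.22, SE 0.048, edgeR adjusted p = 0.0017), and Lta had 504 to 551 CPM in control and 838 to 880 CPM in NFL libraries (0.68, SE 0.030, edgeR adjusted p = 2.9e-24).

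Fas, the death receptor of Fas ligand, had 0 counts in each of the 6 libraries. In a single library of these depths, a level of up to 0.122 to 0.189 CPM would still allow 0 counts. With 0 counts in all 6, the joint limit is lower and was not computed. Its transcripts shared none of 2108 stretches of 50 bases with transcripts of another gene in GENCODE M21, and the only gene that overlaps it, the RNA gene Gm27818, also had 0 counts. Fasl, its ligand, had 6 to 25 counts per library, or 0.3765 to 1.105 CPM, with overlapping groups (log2 fold change 0.27, SE 0.42, edgeR adjusted p = 0.81). The adaptor and protease that act below Fas were present, with 12.01 to 14.3 CPM for Fadd and 250.5 to 268 CPM for Casp8.

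Tnfrsf11b (ENSMUSG00000063727.3) encodes osteoprotegerin, a secreted decoy that binds the ligands RANKL (Tnfsf11) and TRAIL (Tnfsf10) and is known mainly from bone and stromal cells. It had 70.5, 73.9 and 71.9 CPM with control supernatant and 99.8, 105.3 and 100.3 CPM with NFL supernatant, so every NFL library was above every control library. The mean went from 72.1 ± 1.70 CPM to 102 ± 3.02 CPM (SD, n = 3 each), which is 41.4% more and a log2 fold change of 0.50 (SE 0.045). No annotated gene overlaps it, and none of 2769 stretches of 50 bases in its transcript was shared with another gene. Of 7 markers of fibroblasts and endothelium, Col3a1 and Dcn had 0 counts in all libraries and the summed level of the list was 7.57 to 8.45 CPM with control and 7.83 to 8.95 CPM with NFL supernatant. The 4 that could be tested did not overlap between the groups (22.7% of all genes did not), Col1a2 and Pecam1 lying higher and Col1a1 and Cdh5 lower in the NFL libraries, with 0 past the threshold and 3 at an unadjusted p under 0.05 in edgeR's test. Their part in the level of Tnfrsf11b was not tested. Of its ligands, Tnfsf11 had 4 to 10 counts per library and was not tested, and Tnfsf10 had 2 to 26 counts with overlapping groups (log2 fold change -1.06, SE 0.49, edgeR adjusted p = 0.21).

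Tnfrsf26 (ENSMUSG00000045362.8) had the largest log2 fold change in size among the 9. It had 6.705, 6.590 and 6.140 CPM with control supernatant and 3.914, 3.255 and 3.455 CPM with NFL supernatant. The highest NFL library was well under the lowest control library. On 56 to 165 counts, the mean went from 6.48 ± 0.298 CPM to 3.54 ± 0.337 CPM (SD, n = 3 each), and the log2 fold change was -0.87 (SE 0.17). The gene lies on chromosome 7 beside Tnfrsf22 and Tnfrsf23, which encode decoy receptors for TRAIL. The groups overlapped for Tnfrsf23, at 3.81 to 5.77 CPM in control and 3.85 to 4.42 CPM in NFL libraries (log2 fold change -0.14, SE 0.19, edgeR adjusted p = 0.76), and Tnfrsf22 was at 5 to 17 counts (-0.32, SE 0.50, edgeR adjusted p = 0.81). Whether these neighbours differ from Tnfrsf26 in their response was not tested. The 3 genes are relatives by sequence, but none of the 3168 stretches of 50 bases in Tnfrsf26 transcripts was found in another gene's transcripts. The antisense gene E230032D23Rik, which overlaps it, had 2 to 20 counts.

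Levels can be set side by side only per length, here as CPM per kb of merged exons of GENCODE M21. On this scale Tnfrsf9 stood at 151 ± 2.90 with control supernatant (SD, n = 3) and made up 60.3% of the sum over the 28 genes of the superfamily, and at 189 ± 4.14 and 62.6% with NFL supernatant. Among the 10 receptors it was followed in the control libraries by Tnfrsf11b (25.6), Tnfrsf8 (17.3), Tnfrsf1b (10.8), Tnfrsf18 (7.48), Tnfrsf1a (6.58), Tnfrsf26 (2.01), Tnfrsf4 (1.26), Cd27 (0.499) and Fas at 0. The ranges of the 3 control libraries did not overlap between any neighbours in this order, although Tnfrsf18 (6.93 to 8.16) lay close above Tnfrsf1a (6.38 to 6.70). With NFL supernatant Tnfrsf26 (1.01 to 1.22) and Tnfrsf4 (0.774 to 1.37) did overlap. In reads not divided by length, the 10 receptors took 88.7% to 88.9% of the superfamily under control and 90.5% to 90.6% under NFL supernatant. Tnfrsf9 alone took 58.4% to 59% and 60.2% to 61.5% of these reads. Because the receptors were chosen with their counts and differences known, nothing is read from these shares.

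**Figure D2:**
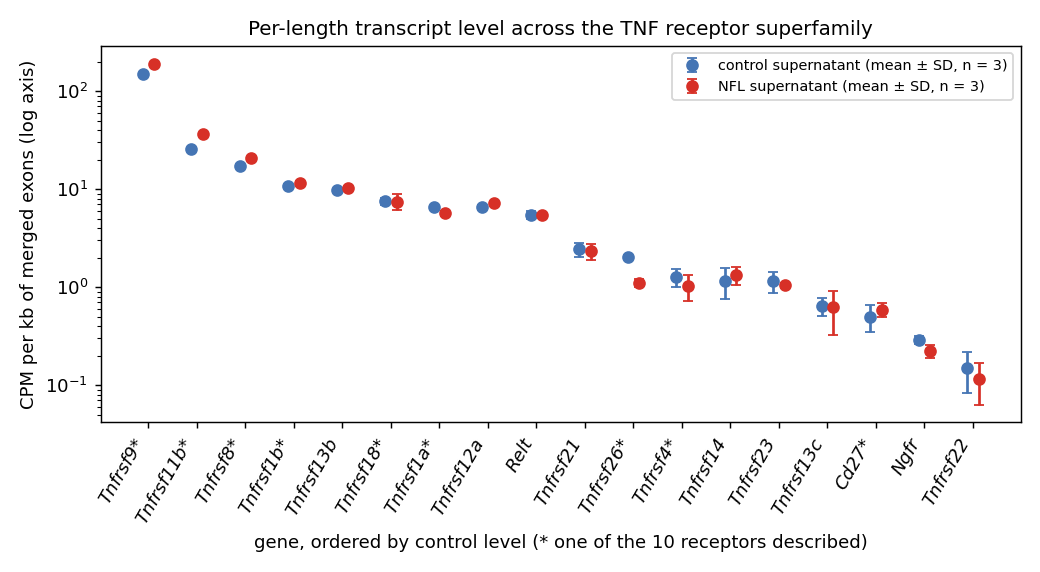
Level per length of the 18 superfamily genes that passed the count filter, in CPM per kb of merged exons on a log axis, ordered by the control level, with an asterisk on the receptors described here. Points are means and bars SDs of 3 libraries. Tnfrsf9 is the highest gene in both groups, at 151 and 189, and Tnfrsf22 the lowest.

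Of the 18 other superfamily genes, 9 passed the filter and 0 were past the threshold in edgeR's test. None of the 9 had an unadjusted p under 0.05, and DESeq2 and limma-voom also called 0. Their median log2 fold change was -0.05. Tnfrsf13b (TACI, a receptor for the B-cell survival factor BAFF) had 27.46 ± 0.498 CPM with control and 29.19 ± 1.14 CPM in NFL libraries (SD, n = 3 each, log2 fold change 0.09, SE 0.073, edgeR adjusted p = 0.58), and Tnfrsf12a (the TWEAK receptor) had 12.54 ± 0.654 CPM and 13.96 ± 0.263 CPM (0.16, SE 0.10, edgeR adjusted p = 0.44). Relt was at 16.2 to 19.8 CPM and Tnfrsf21 (death receptor 6) at 7.93 to 11.5 CPM, both with overlapping groups. Tnfrsf14, the receptor of LIGHT, had 26 to 56 counts and a log2 fold change of 0.17 (SE 0.31), Tnfrsf13c one of -0.07 (SE 0.36) and Ngfr one of -0.38 (SE 0.40). The groups of Tnfrsf13b, Tnfrsf12a and Ngfr did not overlap, 3 of 9 beside 22.7% of all genes. The other 9 genes did not pass the filter, and 6 of the 18, among them Ltbr, Cd40, Tnfrsf25 and Eda2r, had 3 counts or fewer in every library.

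**Figure D3:**
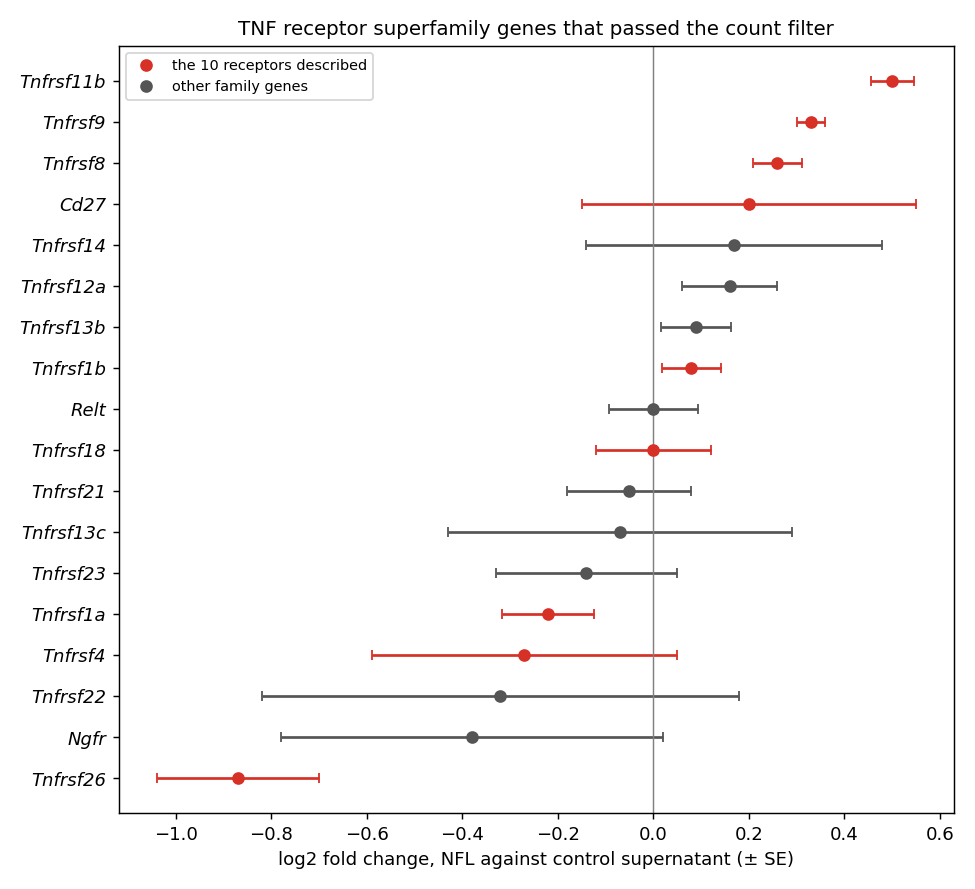
Log2 fold change of NFL against control supernatant for the 18 superfamily genes that passed the filter, with bars of ± 1 SE from the fit of edgeR. Red marks the receptors described here and grey the other superfamily genes. The receptors reach from -0.87 (Tnfrsf26) to 0.50 (Tnfrsf11b), and the other genes lie between -0.38 (Ngfr) and 0.17 (Tnfrsf14). Because the receptors were chosen with this contrast known, nothing is read from the difference between these ranges.

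Genes of the first signalling steps below these receptors were taken from a list of 22, of which 21 could be tested. Of these, 5 (23.8%) were higher with NFL supernatant and 0 were lower past the threshold, where 3.47% of all genes were higher and 3.53% lower. The median log2 fold change was 0.04, and the list was drawn up with earlier results of these libraries known. They were Tnip1, which encodes a partner of the ubiquitin-editing protein A20 (59.4 to 64.7 CPM with control, 96.7 to 98.9 CPM with NFL supernatant, log2 fold change 0.65, edgeR adjusted p = 9.7e-16), Birc3, which encodes the ubiquitin ligase cIAP2 (0.49, edgeR adjusted p = 2.3e-05), the adaptor Traf2 (0.34, edgeR adjusted p = 0.00032), its partner Traf1 (0.30, edgeR adjusted p = 0.0036) and the deubiquitinase Cyld (0.14, edgeR adjusted p = 0.030). Traf1, which TRAF2-binding receptors such as 4-1BB are known to engage, had 27.7 to 29.3 CPM with control and 33.5 to 37.4 CPM with NFL supernatant, with no overlap. Cyld lost the threshold in 6 of 13 alternatives (adjusted p 0.051 to 0.18 in those, 0.11 without control replicate 1, 0.18 without NFL replicate 2 and 0.084 without NFL replicate 3) and Traf1 lost it without NFL replicate 3 (edgeR adjusted p = 0.063). Ripk1, Tradd, Fadd, Casp8 and Cflar, which carry the death domain branch, had log2 fold changes between -0.10 and 0.05 and none was past the threshold, although Casp8 lay higher in all 3 NFL libraries. Of 18 ligand genes 8 could be tested, with a median log2 fold change of 0.19, and only Lta and Tnf (25% of the 8, beside 7.00% of all genes) were past the threshold.

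**Figure D4:**
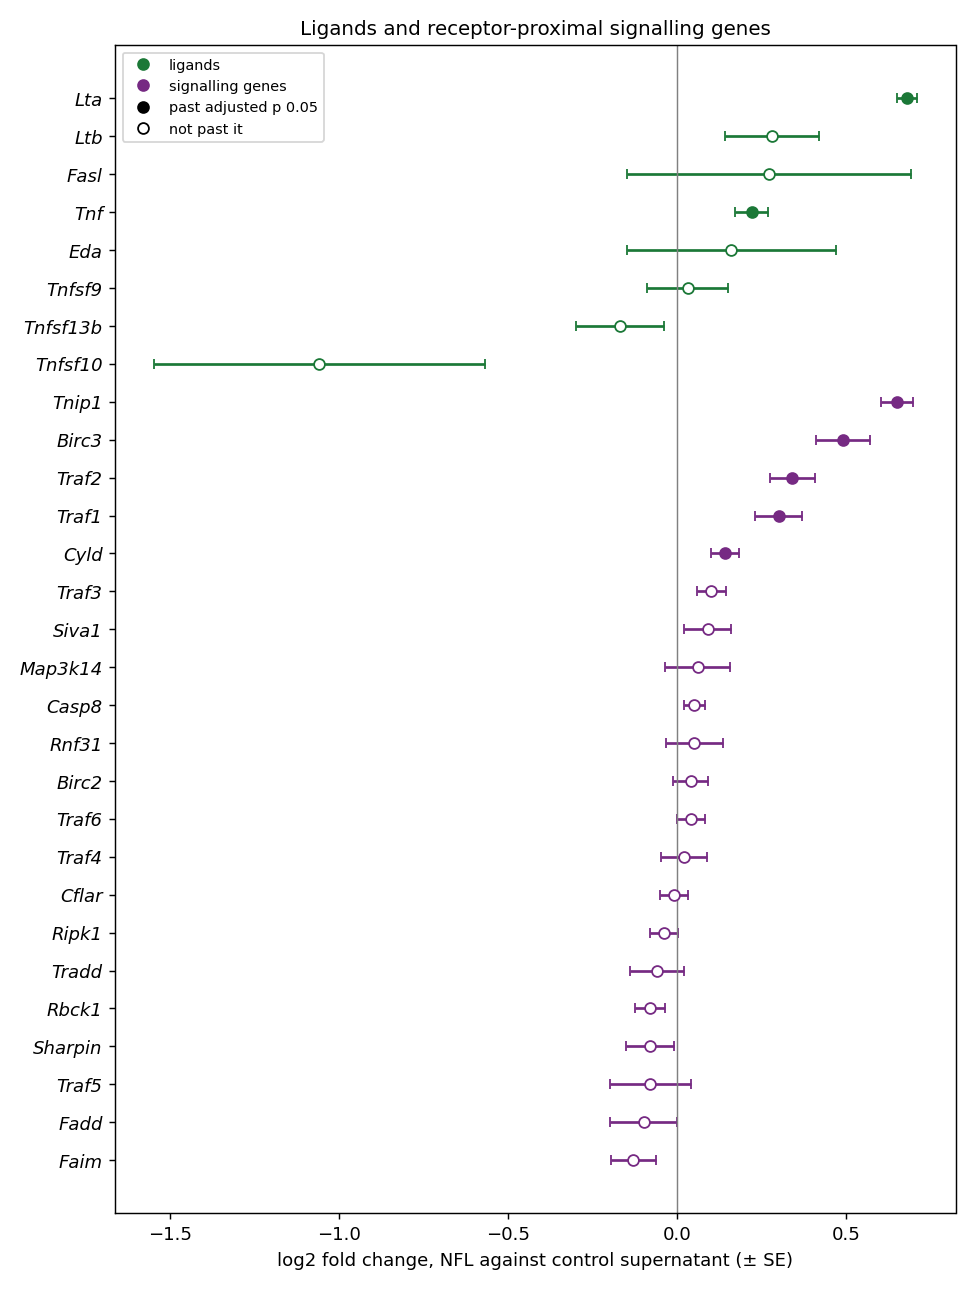
Log2 fold change of NFL against control supernatant for the 8 ligand genes (green) and 21 signalling genes (purple) that passed the filter, with bars of ± 1 SE. Filled points are past an adjusted p of 0.05 in edgeR's test. The filled points, Lta, Tnf, Tnip1, Birc3, Traf2, Traf1 and Cyld, all lie above 0.

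Of the markers listed for other cells, several were at 0 and others were detected. Whether a listed marker is specific to its cell type in these libraries was not tested. Of 4 markers of regulatory T cells, which are known for high Tnfrsf18, Tnfrsf4 and Tnfrsf1b, Ikzf2 was at 0, Ctla4 had 1 to 8 counts and Foxp3 31 to 71 counts per library, whereas Il2ra was at 1608 to 1883 CPM (log2 fold change 0.18, edgeR adjusted p = 1.1e-06). Of 10 macrophage markers 6 were at 0 in every library, and the summed level, nearly all Cd68, was 24.5 to 27.5 CPM with control and 19.2 to 23.4 CPM with NFL supernatant. Cd68 alone had a log2 fold change of -0.26 (edgeR adjusted p = 0.049) and was past the threshold in 7 of 13 alternatives (adjusted p 0.035 to 0.37). It was not past it without control replicate 1 (0.25), NFL replicate 2 (0.37) or NFL replicate 3 (0.11). Nor was it with DESeq2 (adjusted p = 0.13), limma-voom (adjusted p = 0.052) or edgeR with no filter (adjusted p = 0.065). The B-cell markers Ms4a1 and Ighm were at 0, and the summed level of 6 such markers was 12.1 to 13.2 CPM and 11.6 to 14.1 CPM. Of 4 NK markers Ncr1 was at 0 and Klrk1 had at most 1 count in a library. Klrb1c, at 29.7 to 32.9 CPM in control and 22.03 to 22.7 CPM in NFL libraries, was lower (log2 fold change -0.51, edgeR adjusted p = 2.4e-06). The summed level of the 4 was 458.8 to 482.5 CPM with control and 441 to 460 CPM with NFL supernatant, nearly all Eomes. The part of these markers in the receptor differences was not tested.

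The genes whose log2 CPM followed each of the 4 receptors most closely over the 6 libraries were Mreg (Pearson r = 0.9990) and Rpp40 (0.9965) for Tnfrsf9, Fam126b (0.9993) and Rbm15 (0.9961) for Tnfrsf8, Ppp4r3b and Nfkb2 (0.9982 each) for Tnfrsf11b, and Pitpnc1 (0.9995) and Dhcr7 (0.9976) for Tnfrsf26. Each was sought among 8762 genes (8763 for Tnfrsf26) at 10 CPM or more and rests on 6 points in 2 groups, so it describes these libraries and carries no test.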

How the data were processed

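Poly(A)-selected RNA of 6 T-cell samples was sequenced, and the authors deposited raw read counts of 55401 genes by versioned Ensembl identifier, 1 column per sample, without normalization. The submitters' processing notes name GRCm39, R 4.2.1 and limma 3.54.2. The aligner, counting program, annotation release and strand setting are not given in the sources used here. Columns were matched to samples by group letter and number.

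Identifiers of 54349 genes were identical to GENCODE M21 (GRCm38), which gave names, exon lengths and overlaps. Promoter windows came from RefSeq (GRCm38.p6). Since the notes name another build, these coordinates locate the printed sequences only. Amino acid sequences are not used here.

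Genes were kept by filterByExpr (minimum count 10, minimum total 15), scaled by TMM (0.994 to 1.007), and compared by the quasi-likelihood test (glmQLFTest) of edgeR 4.0.16 in R 4.3.3, Benjamini-Hochberg adjusted over 14082 genes at 0.05. CPM used the TMM-scaled totals. The SE is the log2 fold change divided by the square root of F, and 95% intervals use its t distribution. An exact permutation test of 3 against 3 cannot go below p = 0.1. Within a group, the chi-square of any library pair was 1.88 to 3.42 times its degrees of freedom, which counting error alone would not give. This speaks for distinct libraries, not for separate cultures. Alternatives were other size factors, filters, DESeq2 1.42.0, limma-voom 3.58.1, a replicate block and leaving out each library. The receptors and gene lists were chosen with earlier results of these data known. Named were all 10 receptors, the other superfamily genes that passed the filter, ligands of the receptors, ligands and signalling genes past the threshold, marker genes, and the 2 genes most like each receptor past it. Casp8, Fadd, Ripk1, Tradd, Cflar and superfamily genes under the filter fall outside this rule and were named after their values were seen. Figures were drawn with matplotlib 3.10.9.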

Additional observations from a re-analysis of the deposited data

How the results depend on the processing

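Over 13 alternatives the log2 fold change was 0.31 to 0.35 for Tnfrsf9, 0.24 to 0.29 for Tnfrsf8, 0.48 to 0.52 for Tnfrsf11b and -0.94 to -0.81 for Tnfrsf26. The number of other superfamily genes past the threshold was 0, that of ligands 2 to 3 and that of signalling genes 3 to 5, lowest without NFL replicate 3. Rounded, the log2 fold change of Tnfrsf18 was above 0 in 3 of the 13 and below 0 in 6, from -0.15 to 0.12. The count over all genes was 651 with DESeq2 in place of 986, and 508 (without NFL replicate 3) to 966 with a library left out (616 without NFL replicate 2). With library size alone it was 372 higher and 600 lower, in place of 489 and 497. The cause was not tested. Same-numbered libraries correlated by 0.0074 to 0.015 in their deviations from the group means, under 0.1, although each library correlated best with that of its own number. With the replicate number as a block, 1049 genes were past the threshold, and the block changed the call of no other superfamily gene, ligand, signalling gene or marker past the threshold. Depth limits genes of low count such as Tnfrsf4, Cd27, Tnfrsf13c, Ngfr and Tnfrsf22, whose counts were 5 to 42.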

Other observations

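Receptors known mainly from B cells were detected in these T-cell libraries. Tnfrsf13b had 436 to 689 counts per library, Tnfrsf13c, the BAFF receptor, 11 to 39 counts, and their ligand gene Tnfsf13b (BAFF) 131 to 247 counts, or 7.62 to 10.1 CPM, with a log2 fold change of -0.17 (SE 0.13, edgeR adjusted p = 0.54). Pax5, a B-lineage transcription factor, had 138 to 246 counts, Cd79a 23 to 39 and Cd79b 14 to 37, whereas Ms4a1 and Ighm were at 0.

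Tnfaip3, which encodes A20, the ubiquitin-editing inhibitor of TNF receptor signalling, had at most 2 counts in any library and could not be tested. Its partner gene Tnip1 had 996 to 1716 counts and the deubiquitinase Cyld 1564 to 2454 counts. Fas, Cd2, Cd5 and Cd40lg, which are also known from activated T cells, had 0 counts in all 6 libraries. These genes were singled out after their values were seen.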
